A study of Danio rerio with 21 samples.

Results

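Among the telencephalon libraries of batch 1, 6 held more than 5 CPM of tph2, the neuronal tryptophan hydroxylase, and 3 held less than 1 CPM, and the genes that separated these tph2-rich and tph2-poor libraries are described here. CPM, a share of the library, is the number of reads on a gene divided by all reads counted on genes in that library and multiplied by 1000000. The rich libraries were control 1, replicates 2 and 3 at 0.5 mGy/h and replicates 1 to 3 at 5 mGy/h. The poor libraries were controls 2 and 3 and replicate 1 at 0.5 mGy/h. These 9 libraries belong to a series of 21, whose other 12 libraries form batch 2 (6 controls and 6 at 0.05 mGy/h) and were not used to form the classes. All fish were adult zebrafish of the AB genotype, and the exposed groups stood in an external gamma field from a caesium source until day 36, whereas control fish were not irradiated. Each library was made from the pooled telencephalons of several fish, so a value stands for a pool and not for an animal, and the controls of a batch serve only the dose rates of that batch. The classes were chosen by the measured tph2 level and the genes by their measured gap between the classes, so differences between rich and poor libraries are given as descriptions without a test.

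The zebrafish pineal organ lies on the dorsal midline of the forebrain behind the telencephalon, next to the habenulae. Its photoreceptor cells carry opsins and a phototransduction cascade much like those of retinal rods and cones. They also make the hormone melatonin at night from tryptophan, through tryptophan hydroxylase, aromatic amino acid decarboxylase, arylalkylamine N-acetyltransferase and a methyltransferase. Serotonin is an intermediate of this route, and tph2 is also the hydroxylase of serotonin neurons in the raphe of the hindbrain.

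Sequencing gave 45.4 to 71.6 megareads on genes per library in batch 1 and 19.0 to 40.5 megareads in batch 2. A count of 3 reads corresponded to between 0.0419 and 0.158 CPM, and this floor covers counting error only. Genes of telencephalic neurons were present at similar summed levels in both classes, between 3391 and 4152 CPM in the rich and between 3702 and 3917 CPM in the poor libraries for 25 genes. In pooled tissue, fewer cells of a type and less RNA per cell cannot be told apart.

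The level of tph2 was 25.9, 0.541 and 0.802 CPM in the 3 controls, 0.377, 23.3 and 5.73 CPM at 0.5 mGy/h, and 16.5, 27.9 and 28.7 CPM at 5 mGy/h. The library just above the limit for rich was replicate 3 at 0.5 mGy/h, with 5.73 CPM, and the library just below the limit for poor was control 3, with 0.802 CPM. No library of batch 1 lay between the limits. The paralog tph1a, another tryptophan hydroxylase, followed the same division with 15.5, 2.31 and 1.82 CPM in the controls. It stood at 1.87, 15.7 and 9.62 CPM at 0.5 mGy/h. At the highest dose rate it stood at 14.2, 22.1 and 21.4 CPM. The lowest rich library held 4.17 times as much tph1a as the highest poor library.

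The other marker, crx, a homeobox factor of photoreceptors and pinealocytes, went against the axis in 1 library. Its counts were 549, 0 and 2 reads in the controls, 1, 443 and 193 reads at 0.5 mGy/h, and 262, 1 and 135 reads at 5 mGy/h. Replicate 2 at 5 mGy/h, with 1994 reads of tph2 and 22.1 CPM of tph1a, thus held a single read of crx. All 3 poor libraries also held at most 2 reads of crx. In batch 2 no library held more than 1 read, although tph2 reached 21.8 CPM there. A second gene, for which the symbol table gives the human name CRX (ENSDARG00000043483), did follow the axis, with 5.36 to 16.5 CPM in the rich libraries and 1.19, 2.44 and 1.59 CPM in the poor ones. Because of crx, the axis is called here by tph2 and not by a cell type.

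**Figure D1:**
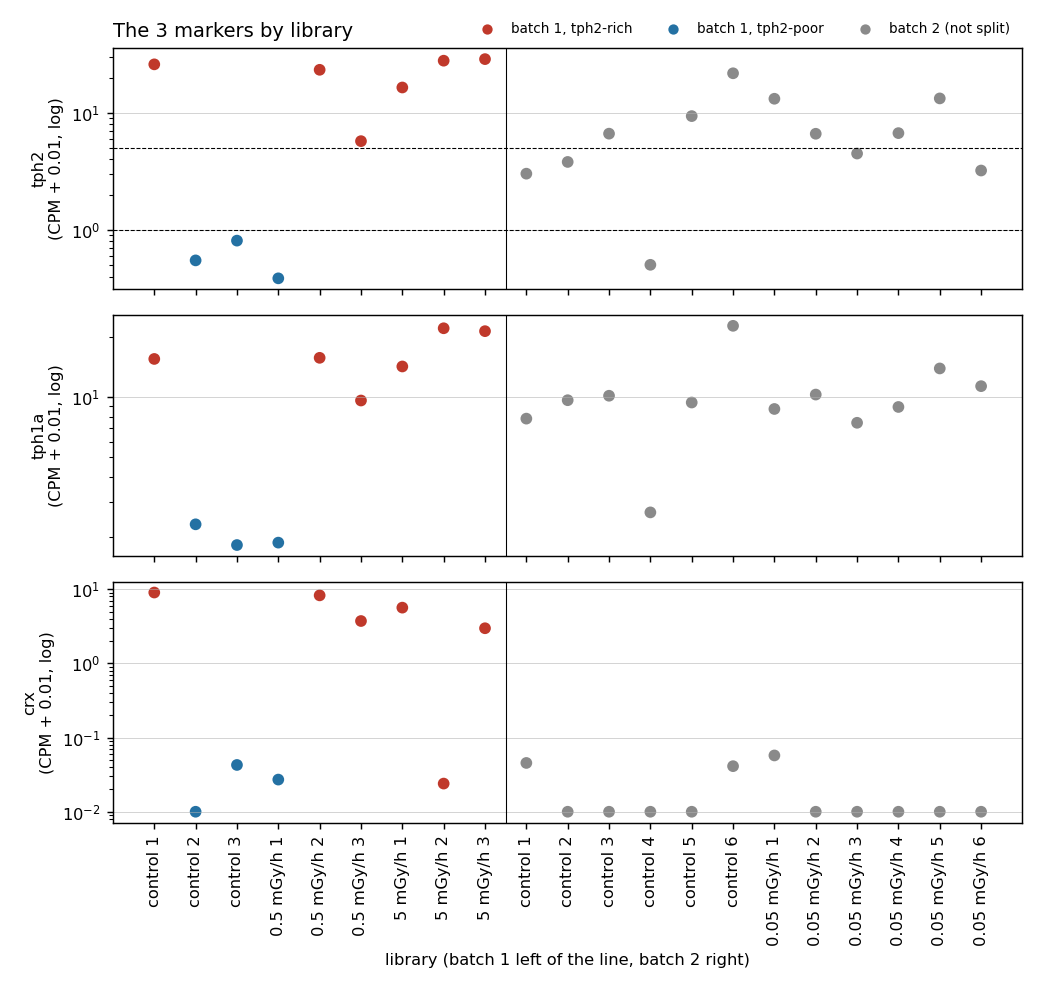
Levels of tph2, tph1a and crx (CPM + 0.01, log axes) in each of the 21 libraries, with batch 1 left of the line and the limits of 5 and 1 CPM as dashed lines. The 6 rich and 3 poor libraries separate for tph2 and tph1a, while crx is near 0 in 5 mGy/h replicate 2 and throughout batch 2.

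Of 18906 genes with a mean of at least 0.5 CPM over the 9 libraries, 132 were at least 2-fold higher in the lowest rich library than in the highest poor library, where a poor count under 3 reads was set to 3. This is 0.698% of the genes, and tph2, which chose the classes, is 1 of them. They are called axis genes below. No gene was lower by the same rule (0 of 18906). When any gap without overlap was counted, 543 genes (2.87%) were higher and 144 (0.762%) were lower in the rich libraries. Many axis genes, such as NXNL1 and AIPL1, were under 0.5 CPM in every poor library and passed the minimum through the rich ones. By the 2-fold rule without that minimum, 150 genes were higher and 0 were lower. The gaps of the 132 genes ranged from 2.05 to 45.4 with a median of 7.38, and 48 genes had a gap of 10 or more. The genes just inside the 2-fold limit were ANKRD33B (2.05), ELOVL4 (2.06) and aanat2 (2.09), and those just outside were DGKA (1.97), FSCN2 (1.97) and BOK (1.96). Symbols in capitals are the human names that the symbol table gives, and they cannot tell paralogs apart.

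**Figure D2:**
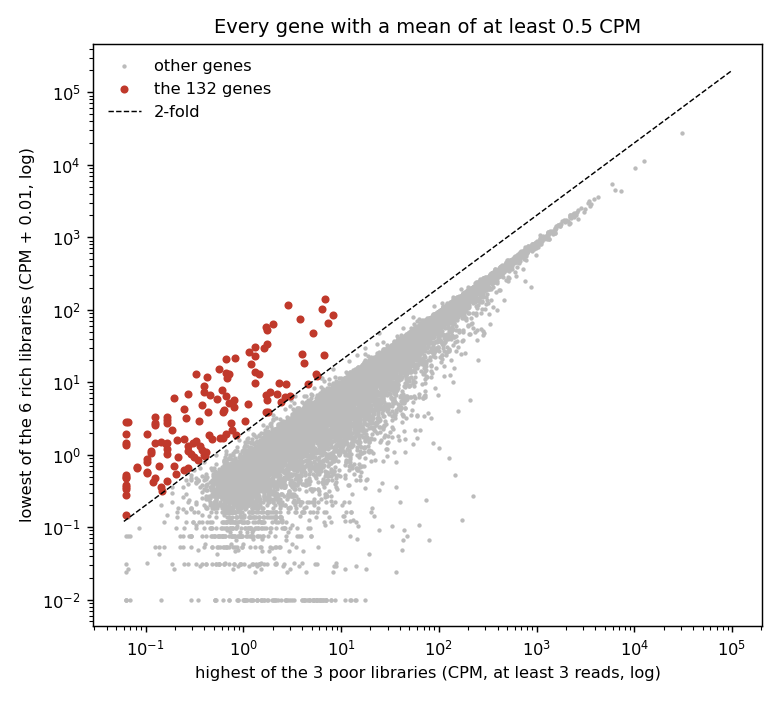
Lowest of the 6 rich libraries (CPM + 0.01) against the highest of the 3 poor libraries (CPM, with at least 3 reads) for 18906 genes, on log axes. The 132 genes above the dashed 2-fold line reach gaps of 45.4 and lie at the low end of the levels in the poor libraries.

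Together the 132 genes made up between 0.152% and 0.460% of the reads on genes in the rich libraries and between 0.00857% and 0.0127% in the poor ones. The lowest rich sum was 12.01 times the highest poor sum. The median log2 ratio of the class medians was 2.91 for these genes and 0.02 for all genes with a mean of at least 0.5 CPM, both computed from CPM plus 0.5. Of the 132 genes, 54 belong to lists of the pineal organ and photoreceptors, while 77 belong to none of the 19 lists used. The lists were chosen with earlier results of these data known, so this overlap is a description and no independent support. The counts by list below stand beside 0.698% of all genes on the axis and 2.87% higher without overlap.

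Enzymes of melatonin synthesis accounted for 4 of the 6 list genes over the minimum level, of which tph2 was on the axis by choice. The methyltransferase asmt, which makes melatonin in the last step, reached 33.6 to 182 CPM in the rich libraries with a median of 108 CPM. It stood at 1.77, 1.05 and 0.566 CPM in the poor libraries. The rate-limiting acetyltransferase aanat2 reached 11.99 to 72.1 CPM in the rich libraries, and 5.74, 4.96 and 4.49 CPM in the poor ones, so that its gap was much narrower than that of asmt. The decarboxylase DDC, which is also needed for dopamine, did not overlap either (19.6 to 51.6 against 7.13, 12.16 and 8.93 CPM), but its gap of 1.61 stayed under the limit. The paralog asmt2 was level over all 9 libraries, with 8.30 to 11.0 CPM in the rich and 9.94 to 10.18 CPM in the poor libraries. The remaining hydroxylase gene, tph1b, was at most 0.484 CPM in batch 1.

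Among the opsins, the light-sensing receptors, 4 of 16 genes over the minimum level belonged to the axis. The non-visual opsins of the group were parapinopsinb, known from the pineal organ of fish, with 4.59 to 17.7 CPM against 0.811, 0.409 and 0.394 CPM, and parietopsin (ENSDARG00000052056), with 0.541 to 2.33 CPM against 0.104, 0 and 0 CPM. Another non-visual opsin, tmtops2a, had 3.87 to 12.03 CPM against 1.46, 1.77 and 1.80 CPM, a gap of 2.15.

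The phototransduction cascade formed the largest list on the axis, with 27 of the 48 genes in the files, or of the 41 over the minimum level. Of the 27, 11 were under 0.5 CPM in every poor library and passed the minimum through the rich ones. Transducin, the G protein that opsins activate, was among them. Its subunits on the axis included GNAT1, with 64.4 to 184 CPM in the rich libraries and 2.02, 0.524 and 0.360 CPM in the poor ones, GNAT2 with a narrower gap of 4.36, and GNGT2. GNGT2 had the widest computed gap, 45.4, with 2.83 to 14.2 CPM in the rich libraries and no more than 1 read in any poor library. Its gap, like those of the other 11 genes at 3 reads or fewer in all poor libraries, was set by the floor of 3 reads, so their order among the genes is not determined.

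Phosphodiesterase, the effector enzyme of the cascade, was represented by PDE6C, PDE6G, PDE6H, pde6ha and 2 genes named PDE6B. PDE6G reached 103 to 324 CPM in the rich libraries against 6.39, 3.99 and 4.53 CPM, and PDE6H reached 30.2 to 122 CPM against 1.33, 0.491 and 0.189 CPM. Subunits of the light-regulated cation channel (2 genes named CNGA1, cngb3.1 and cngb3.2) had gaps between 10.9 and 18.7. A gene named CNGA3 (ENSDARG00000070726) did not overlap, with a gap of 1.84.

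Genes that switch the light response off were among those with the widest gaps. The arrestin saga reached 115 to 301 CPM in the rich libraries and 2.85, 0.884 and 0.326 CPM in the poor ones, and sagb had a gap of 14.9. The opsin kinases GRK7 (2 genes, gaps of 25.7 and 9.08) and grk1b (20.2) behaved likewise. The recoverins, calcium sensors that hold back these kinases, included rcvrnb, with 53.3 to 204 CPM against 0.978, 1.74 and 0.429 CPM. The guanylate cyclase gucy2f and its activators guca1aa and guca1c restore the messenger cGMP, with gaps of 9.69, 19.9 and 3.64.

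Of 35 listed genes of the photoreceptor outer segment and synapse, 23 were over the minimum level, and 8 belonged to the axis. All of the 8 except CPLX4 were under 0.5 CPM in every poor library and passed the minimum through the rich ones. The 8 included AIPL1, a chaperone for phosphodiesterase, with 6.01 to 12.4 CPM in the rich and 0.187, 0.196 and 0.137 CPM in the poor libraries. The lipid-binding carrier unc119c and the small GTPase arl3l1, which take part in the delivery of lipidated proteins to the outer segment, had gaps of 27.9 and 22.05. CPLX4 and cplx4c, complexins of ribbon synapses, had gaps of 10.5 and 11.7. Some structural genes overlapped between the classes because of single rich libraries. tulp1b, of the photoreceptor cilium, was at 0.215 CPM in replicate 1 at 5 mGy/h, at 1.77 to 8.69 CPM in the other rich libraries, and at 0.104, 0.229 and 0.274 CPM in the poor ones.

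In the visual cycle, which regenerates the chromophore of opsins, 6 of 24 genes over the minimum level belonged to the axis. Higher in the rich libraries without overlap were 12 genes of the list. Over all genes, 0.698% were on the axis and 2.87% were higher without overlap. The retinol-binding protein gene rbp4l was the most abundant gene of the axis, with 140 to 529 CPM in the rich libraries and 6.93, 1.74 and 0.394 CPM in the poor ones. The interphotoreceptor retinoid-binding protein rbp3 followed with 65.2 to 189 CPM against 7.38, 5.89 and 0.446 CPM. The dehydrogenase rdh5 reached 26.0 to 70.4 CPM against 1.14, 0.737 and 0.137 CPM. The isomerase RPE65 (ENSDARG00000007480) was intermediate: its rich libraries held 112 to 231 CPM, and its poor libraries 36.4, 88.7 and 30.97 CPM. Control 3 was thus poor in tph2 but held more RPE65 than the other 2 poor libraries.

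Of 14 transcription factors of the pineal organ and photoreceptors over the minimum level, 5 belonged to the axis. LHX4 had the widest gap, with 7.69 to 23.6 CPM in the rich and 0.603, 0.229 and 0.103 CPM in the poor libraries. noto, known in zebrafish as the notochord gene floating head that pineal neurogenesis also needs, reached 0.559 to 1.69 CPM against 0.104, 0.0327 and 0 CPM. bsx, a homeobox gene needed for zebrafish pineal development, reached 2.15 to 10.7 CPM against 0.187, 0.278 and 0.771 CPM. The photoreceptor nuclear receptor NR2E3 reached 5.73 to 18.3 CPM against 1.02, 1.74 and 0.720 CPM. The broader factor OTX2 (ENSDARG00000011235) did not overlap but had a gap of only 1.18, with control 3 again the highest of the poor libraries.

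**Figure D3:**
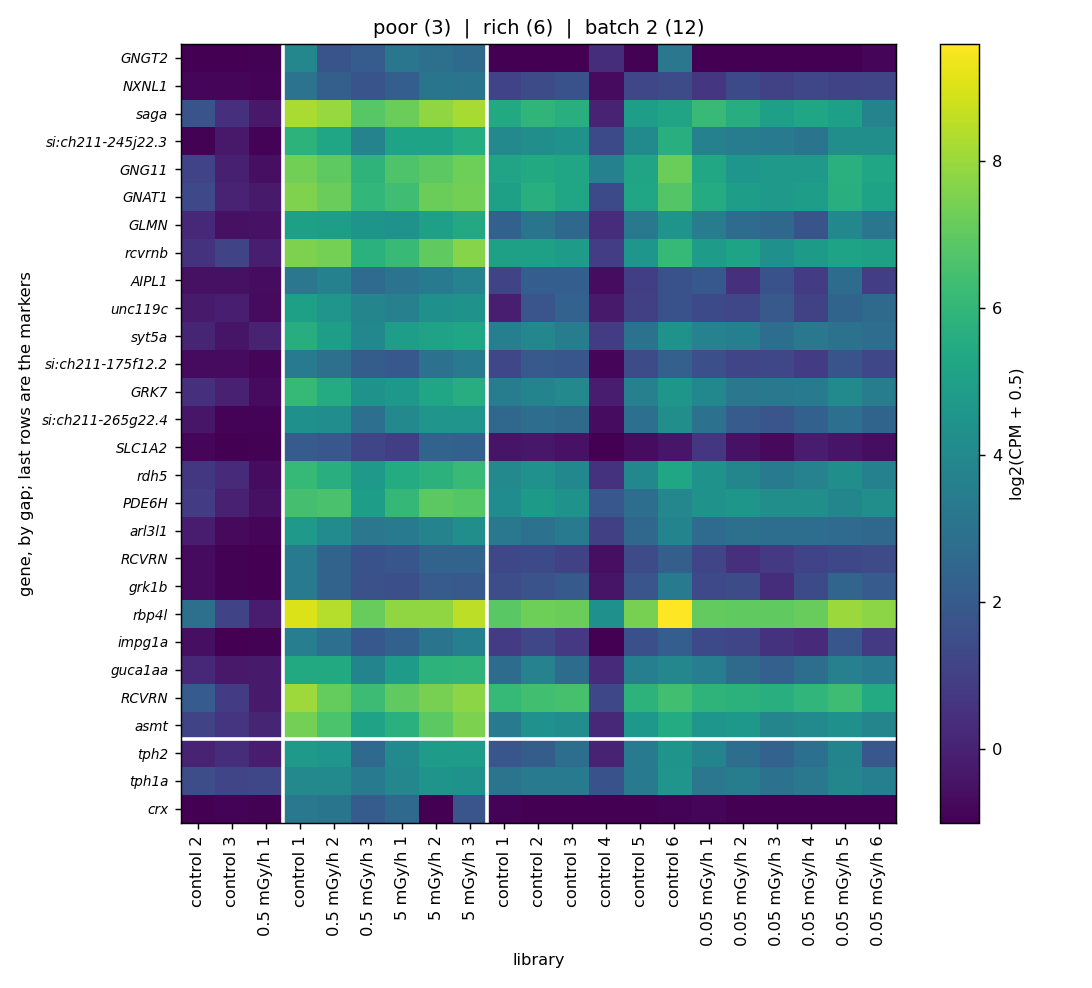
Levels (log2 of CPM plus 0.5) of the 25 symbol-bearing genes with the widest gaps, and of tph2, tph1a and crx, in the 3 poor, 6 rich and 12 batch 2 libraries. The colour scale runs from dark (low) to yellow (high). The poor libraries are darker than the rich ones for the 25 genes, tph2 and tph1a, while crx is dark in 5 mGy/h replicate 2 and in batch 2, and control 4 is the darkest batch 2 library for most genes.

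The remaining genes with the widest gaps were NXNL1, a thioredoxin-like factor of photoreceptors, GNG11, a G protein gamma subunit, GLMN, syt5a, a synaptotagmin, SLC1A2 (ENSDARG00000052138), impg1a, a proteoglycan of the photoreceptor matrix, 2 genes named RCVRN, si:ch211-245j22.3, si:ch211-175f12.2 and si:ch211-265g22.4. GNG11 was abundant, with 58.6 to 162 CPM in the rich libraries and 1.71, 0.458 and 0.171 CPM in the poor ones. SLC1A2 bears the name of a glial glutamate transporter, but the abundant gene of that name (ENSDARG00000102453) was at 1677 to 1886 CPM in the rich and 1859 to 2018 CPM in the poor libraries. The axis gene stood at 1.44 to 4.71 CPM against 0.0624, 0 and 0.0171 CPM. Outside the rule for named genes, and picked after their values had been seen, cyp11c1 and INSM1 may be added. cyp11c1, an enzyme of cortisol and 11-ketotestosterone synthesis, was at 0.655 to 2.88 CPM against 0.208, 0.229 and 0.274 CPM. INSM1, a factor of neuroendocrine cells, was at 13.1 to 28.5 CPM against 5.55, 5.21 and 5.14 CPM.

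Within the rich libraries the genes rose and fell largely in parallel. The summed level of the 132 genes was 4604 CPM in control 1, 3313 and 1524 CPM in replicates 2 and 3 at 0.5 mGy/h, and 2326, 3336 and 4263 CPM in replicates 1 to 3 at 5 mGy/h. The highest of these sums, that of a control, was 3.02 times the lowest. Of the 132 genes, 72 were highest in control 1 and 47 in replicate 3 at 5 mGy/h. In replicate 3 at 0.5 mGy/h, the rich library with the least tph2, 97 were lowest. Such counts, and the SD given next, were not computed for all genes, so a tendency of whole libraries was not separated from the axis. After the median shift of each library had been removed, the SD over the 6 libraries had a median of 0.27 on the log2 scale and reached 0.5 in 13 genes. The widest exception was ARR3 (ENSDARG00000056511), an arrestin of cones, with an SD of 1.698. It stood at 0.538 CPM in replicate 1 at 5 mGy/h and at 6.48 to 54.8 CPM in the other rich libraries. bsx was next, with 2.15 CPM in replicate 2 at 5 mGy/h, the library that lacked crx, and 4.26 to 10.7 CPM in the other 5.

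The poor libraries had sums of 127 and 109 CPM in controls 2 and 3 and 85.7 CPM in replicate 1 at 0.5 mGy/h. Single genes differed more among them, as rbp4l and rbp3 show, and control 2 was the highest of the 3 for 67 genes. Of the 132 genes, 12 were at 3 reads or fewer in all 3 of them, and each of the others had more than 3 reads in at least 1 of them. tph1a, for example, remained at 1.82 to 2.31 CPM.

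Markers of other cell types that the dissection could include were examined over whole lists. Of the raphe serotonin neuron list, tph2 itself was the only gene on the axis. The remaining 8 genes summed to 20.3 to 26.7 CPM in the rich and 15.08 to 19.9 CPM in the poor libraries, so these sums still separated the classes by a small margin. The raphe factor FEV stood at 0.0746 to 0.151 CPM in the rich and 0.125, 0.131 and 0.206 CPM in the poor libraries. The serotonin transporter slc6a4a reached 0.646 to 4.54 CPM in the rich and 0.478, 1.34 and 1.06 CPM in the poor libraries, and the classes overlapped.

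Of the list of retinal cells other than photoreceptors and of pigment epithelium, rlbp1a was the only one of 16 genes on the axis. The rest of the list still separated the classes, with sums of 274 to 407 CPM in the rich and 168 to 259 CPM in the poor libraries. RPE65, described above, made up much of this sum, and without it the remaining 19 genes overlapped (162 to 198 against 132 to 199 CPM). VSX1, which marks bipolar cells, was at most 0.166 CPM in batch 1. The pigment cell gene DCT was at most 0.821 CPM, and 0 of 6 pigment cell genes were on the axis. Of 12 genes of choroid plexus and ependyma 0 were on the axis, but 3 were higher in the rich libraries without overlap, beside 2.87% of all genes. They were OTX2, the water channel AQP1 (9.002 to 14.2 against 6.69 to 8.01 CPM) and RSPH4A, of motile cilia (5.06 to 5.94 against 3.58 to 4.96 CPM). The part of these cells in the axis was not tested. Lists of endothelium and meninges, red blood cells, pituitary, telencephalic neurons, oligodendrocytes and the circadian clock also contributed 0 genes, and that of radial glia contributed SLC1A2 alone. With 0.698% of all genes on the axis, a count of 0 in lists this short is no result about them.

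The preoptic peptide gene oxt was not on the axis. Its level was 325, 17.2 and 64.8 CPM in the controls, 85.6, 96.5 and 63.4 CPM at 0.5 mGy/h, and 136, 157 and 326 CPM at 5 mGy/h. Rich and poor libraries overlapped through replicate 3 at 0.5 mGy/h, a rich library with 63.4 CPM. Every other rich library lay above the highest poor value, 85.6 CPM. None of the 12 preoptic and hypothalamic genes over the minimum level was on the axis, which beside 0.698% of all genes is no result about them. Higher in the rich libraries without overlap was 1 of them, beside 2.87% of all genes. The whole list summed to 172 to 455 CPM in the rich and 107 to 190 CPM in the poor libraries.

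Some habenular genes divided the rich libraries among themselves. The 4 described were picked after their values had been seen. Of the 17 habenular genes over the minimum level, they were the ones at least 2-fold higher in each of 4 rich libraries than in any of the other 5 libraries of batch 1, and 6 of the 17 were higher there without overlap. Those 4 libraries were set by their level of gng8, so gng8 was higher in them by choice. The share of all genes that follow this division was not computed, so these counts are a description. gng8, a G protein gamma subunit of habenular neurons, was at 0.214, 0.208 and 0.196 CPM in the controls, 0.171, 5.93 and 12.03 CPM at 0.5 mGy/h, and 7.04, 11.5 and 0.154 CPM at 5 mGy/h. The ventral habenula peptide gene kiss1 was at 0.0164, 0.0416 and 0.196 CPM in the controls, 0.0686, 5.54 and 7.15 CPM at 0.5 mGy/h, and 2.26, 6.22 and 0.550 CPM at 5 mGy/h. Both were therefore high in 4 of the 6 rich libraries and low in the 2 with the highest summed axis genes, control 1 and replicate 3 at 5 mGy/h. POU4F1, a factor of habenular neurons, was at 1.04 to 2.95 CPM in the same 4 libraries and at most 0.110 CPM in the other 5. The receptor GPR151 was at 1.40 to 2.89 CPM and at most 0.329 CPM, respectively. None of the 17 was on the axis, which in a list this short is no result about it. In the list, 2 genes were higher in the rich than in the poor libraries without overlap, beside 2.87% of all genes. The whole list did not follow the division by gng8. It summed to 439, 450.3, 419 and 577 CPM in those 4 libraries, 376 and 477 CPM in the other rich ones, and 425 to 451 CPM in the poor ones. The part of neighbouring tissue in the dissected pools in either pattern was not tested.

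**Figure D4:**
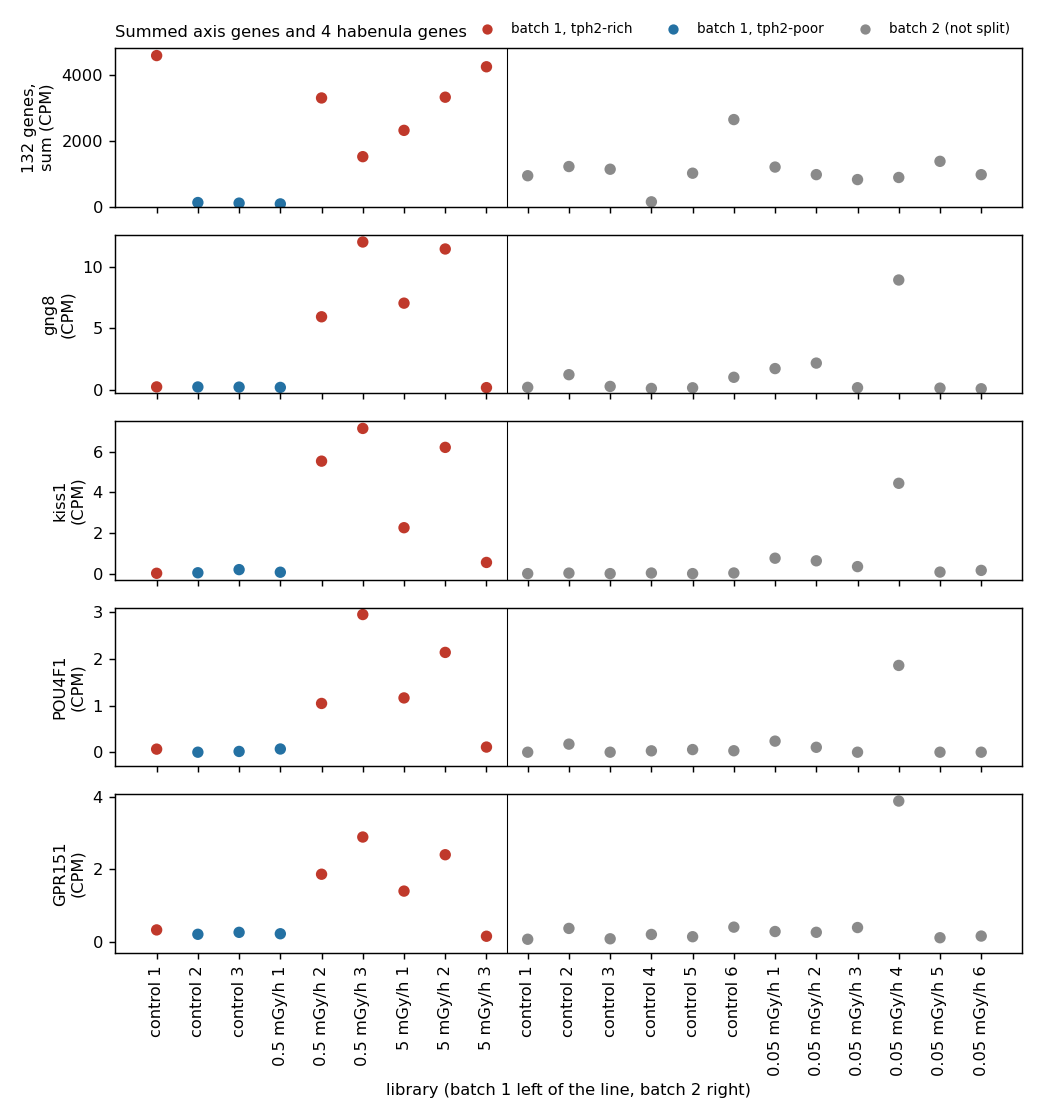
Summed level of the 132 axis genes and levels of gng8, kiss1, POU4F1 and GPR151 (CPM, linear axes) in each library. In batch 1 the 4 habenular genes are high in 4 of the 6 rich libraries, and in batch 2 they are highest in 0.05 mGy/h replicate 4, whose axis genes sum to 890.3 CPM.

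Dose rate and class were tied in batch 1, since 1 of 3 controls, 2 of 3 libraries at 0.5 mGy/h and 3 of 3 at 5 mGy/h were rich. The direction of the axis genes in a dose comparison therefore follows in part from how they were chosen, and the counts below are a description of it. The choice also widens their spread within the controls and within the 0.5 mGy/h group, since both hold rich and poor libraries. A low count of axis genes passing is therefore no result about dose. With edgeR's quasi-likelihood test over all genes, 1 of 21307 genes (0.00469%) passed a false discovery rate (FDR, Benjamini-Hochberg) of 0.05 and a fold change of 1.5 at 0.5 mGy/h. At the higher dose rate 1 gene passed as well (0.00469%). Of the 132 axis genes, 0 passed at either dose rate, and 0 and 1 had an unadjusted p under 0.05, against 504 (2.37%) and 1227 (5.76%) of all genes. DESeq2 also called 0 axis genes at either dose rate. Over all genes it called 11 (0.0418%, with 9 or 0.0342% higher) and 88 (0.411%, with 56 or 0.261% higher). Without replicate 1 at the highest dose rate, edgeR called 1375 genes there (6.34%), of which 1325 (6.11%) were higher, but again 0 of the 132 axis genes, whose median log2 fold change was 1.21.

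The median log2 fold change of the axis genes was 0.02 at the lower and 0.98 at the higher dose rate, with 67 and 130 of 132 above 0, beside medians of 0.01 and 0.03 for all genes tested. The log2 fold change of tph1a at 5 mGy/h was 1.56 with a standard error of 0.93 (edgeR FDR 0.946), and that of asmt was 1.08 with a standard error of 1.86 (edgeR FDR 0.996). Neither difference passed the FDR over all genes tested. The medians moved with single libraries. Without control 1, the medians were 3.66 and 4.70. An unadjusted edgeR p under 0.05 was then reached by 107 and 132 axis genes, beside 541 and 1202 of all 21547 genes. The 2 controls left were both poor, so these counts follow in part from how the genes were chosen. No axis gene passed the FDR there (0 at either dose rate). Without control 2 the medians were -0.51 and 0.44, and without replicate 2 at 0.5 mGy/h the median at that dose rate was -0.88. With the class as a further term in the fit, the medians were -0.82 and -0.38, and 0 axis genes passed. In that fit 30 and 6 axis genes had an unadjusted edgeR p under 0.05, beside 417 and 839 of all 21307 genes. The class term was formed from tph2 and the genes were chosen by their gap between the classes. The medians and counts of this fit therefore also follow in part from that choice.

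Batch 2 offered the same genes in libraries that the choice had not used. There tph2 formed no separate classes. It was at 3.02, 3.80, 6.63, 0.495, 9.37 and 21.8 CPM in controls 1 to 6 and at 13.18, 6.62, 4.49, 6.71, 13.3 and 3.21 CPM in replicates 1 to 6 at 0.05 mGy/h. Control 4 alone lay under 1 CPM, 7 libraries lay above 5 CPM and 4 lay between.

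Control 4 was also the library with the least of most axis genes. It was the lowest of the 12 libraries for 116 of the 132 genes (87.9%), whereas it was the lowest for 5.11% of all 18906 genes. The summed level of the 132 genes was 149 CPM in control 4 and 826 to 2654 CPM in the other 11 libraries. asmt, for example, stood at 0.641 CPM in its lowest library and at a median of 18.8 CPM over the 12. Control 6 held the highest sum, 2654 CPM, and was the highest library for 70 of the 132 genes (53.0%), but it was also the highest for 28.4% of all genes.

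Levels of the axis genes in batch 2 were mostly intermediate. For 110 of the 132 genes the median of batch 2 lay above every poor library and below every rich library of batch 1. Of the other 22 genes, 18 had a batch 2 median at or above the lowest rich library, such as rbp4l with 144 CPM, and 4 had one at or below the highest poor library. The latter included aanat2 (4.88 CPM), bsx (0.529 CPM) and GNGT2 (0 CPM, with 8.57 CPM in control 6). The gap rule leaves a space of at least 2-fold between the classes for every axis gene, which favours a high count of intermediate medians. This count was not computed for all genes and is a description. Batch and level cannot be told apart in a comparison across batches.

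Over the 12 libraries of batch 2, the rank correlation with tph2 had a median of 0.51 for the other 131 axis genes and 0.01 for all 18906 genes, and 125 of the 131 were above 0. A value of at least 0.5 was reached by 67 of the 131 genes (51.1%) and by 5.31% of all genes, and a value of at least 0.7 was reached by 21 of the 131 genes (16.0%) and by 0.571% of all genes. The highest was 0.96, for pcare2, a gene of photoreceptor outer segments, and the lowest was -0.29, for ppm1na. aanat2, CRX (ENSDARG00000043483, not the marker crx) and cngb3.2 were at 0.83, 0.85 and 0.83. Genes that share these libraries, their depth and control 4 are not independent points. The median of the axis genes was 0.47 without control 6, 0.36 without control 4 and 0.30 without both, beside 0.08, -0.01 and 0.07 for all genes.

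**Figure D5:**
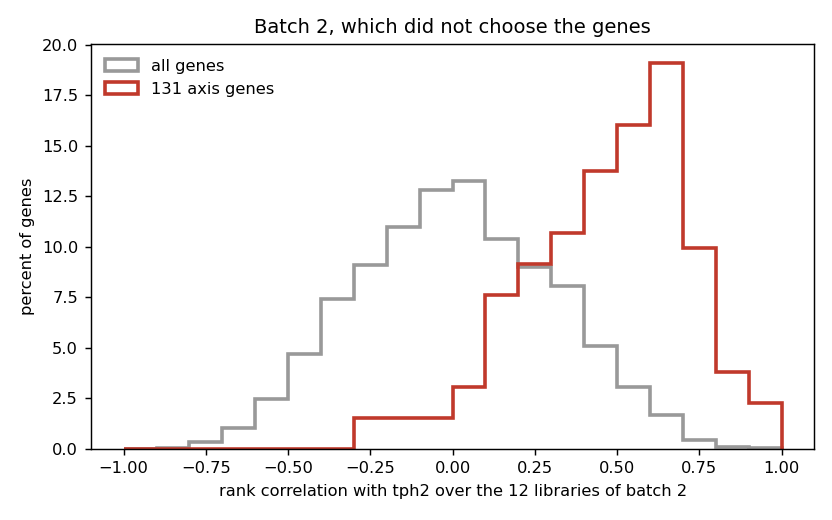
Share of genes (percent) by Spearman rank correlation with tph2 over the 12 libraries of batch 2, for all 18906 genes and for the 131 axis genes other than tph2. The axis genes centre at 0.51 and all genes at 0.01.

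The relation was tested for tph1a and the 10 named genes with the widest gaps, 11 tests in all, and crx was left out for lack of reads. Pearson's r on log2 of CPM plus 0.5 ranged from 0.24 to 0.86, and 8 of the 11 genes had an adjusted p under 0.05 (two-sided permutation test with 100000 resamples, Benjamini-Hochberg). The permutations exchanged all 12 libraries freely, without regard to dose group or to the pairing of replicate numbers. tph1a had r = 0.85 (permutation p = 0.0016, adjusted 0.0059) and a Spearman correlation of 0.54 (permutation p = 0.075, adjusted 0.21). GNAT1 had r = 0.86 (permutation p = 0.00087, adjusted 0.0057) and a Spearman correlation of 0.67 (permutation p = 0.021, adjusted 0.11). GNGT2 had r = 0.24 (permutation p = 0.38, adjusted 0.38) and a Spearman correlation of -0.02 (permutation p = 0.95, adjusted 0.95).

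By rank, 0 of the 11 genes passed after adjustment, 3 had an unadjusted p under 0.05, and the lowest adjusted permutation p was 0.097, for GLMN with a Spearman correlation of 0.73. Without controls 4 and 6, the 2 libraries farthest from the median of tph2, r ranged from -0.29 to 0.50 and was above 0 for 7 of the 11 genes, so that the size of r rested on these libraries, whose removal also narrows the range of tph2. GLMN and GNAT1 kept Spearman correlations of 0.54 and 0.43. Within the 6 controls all 11 rank correlations were above 0, and within the 6 libraries at 0.05 mGy/h 7 of 11 were.

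At 0.05 mGy/h against the controls of batch 2, 1 of 19454 genes passed (0.00514%, edgeR), and it was not on the axis. With the replicate number as a block, since same-numbered libraries of this batch deviated together, 0 genes passed. Of the 118 axis genes that entered the fit, 0 passed in either fit or with DESeq2, and 0 and 1 had an unadjusted edgeR p under 0.05, against 4.26% of all genes without the block. Their median log2 fold change was -0.20, beside -0.01 for all genes. It was 0.13 without control 6, -0.41 without control 4, and 0.09 with the replicate block. Without any 1 of the other libraries it stayed below 0.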

How the data were processed

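The authors deposited counts of reads per gene for 21 libraries of pooled telencephalons, unnormalized, in the layout of STAR with unstranded and stranded columns. Per the labels, reads had been mapped to GRCz11 after a stranded mRNA preparation, and the submitters' processing notes name DESeq2 1.22.2, whereas the methods of the study name another version. Column 4, the strand of this kit, was used, and rows naming no gene (between 39.9% and 45.0% of a library's reads) were left out. Symbols were paired with 28989 of 32057 gene IDs. The members and the gene lists were chosen with earlier results of these data known. The genes named are the 3 markers, the 25 genes with a symbol, a mean of at least 2 CPM and the widest gaps, and members of a described list. Dose groups were compared with edgeR 4.0.16 (TMM, filterByExpr, quasi-likelihood test) in R 4.3.3, within a batch, at an FDR of 0.05 and a fold change of 1.5. Nothing in the labels says that pools came from separate tanks, so p-values measure the spread between these libraries. Same-numbered libraries of batch 2 correlated in their deviations from the group means in all pairs (r from 0.145 to 0.24). Differently numbered pairs of batch 2 had a mean r of -0.036, but their range of -0.282 to 0.298 overlapped. Same-numbered libraries of batch 1 did not correlate (mean -0.14), so the replicate number was taken as a pairing in batch 2 only. In batch 1 the replicate block was fitted only as an alternative. Alternatives were DESeq2 1.42.0, RLE factors, no filter, unstranded counts, TMM-scaled CPM, other gap limits, the class as a term, the replicate block and leaving out each library. The gap rule and edgeR were tested on simulated data. Counting error alone enters the floor of 3 reads. No promoter or protein sequences were used. Some list genes are not reported here by name.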

Additional observations from a re-analysis of the deposited data

Results flagged for a closer look

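Within the labelled groups of 6 in batch 2, single libraries lay far from their group mates by Dixon's test. Of 34 sets of values checked, 9 met it. The nominal chance rate of about 1 in 20 cannot be set against this count, because the sets share libraries. Several of the 9 came from the same library, some lay at low levels, and the habenular genes were picked after their values had been seen. Whether the count exceeds chance was not tested. Control 6 stood apart from the other controls for tph1a, with 22.7 CPM against 2.65 to 10.162 CPM. Its distance from the next tph1a value, as a share of the range, was 0.6257, just above the limit of 0.625. Control 6 also stood apart for GNG11, with 146 CPM against at most 42.3 CPM, and for GNGT2, with 8.57 CPM against at most 0.815 CPM. At 0.05 mGy/h, GNGT2 was at 0.0636 CPM in replicate 6 and at 0 in the other 5 libraries, but this value lies under the floor of 3 reads (0.0954 CPM).

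Replicate 4 at 0.05 mGy/h stood apart for all 4 habenular genes shown. It held 8.93 CPM of gng8 against at most 2.15 CPM in its group, 4.45 CPM of kiss1 against at most 0.759 CPM, 1.86 CPM of POU4F1 against at most 0.237 CPM, and 3.88 CPM of GPR151 against at most 0.394 CPM. Its summed level of the 132 axis genes was 890.3 CPM, within the range of its group. Control 2 stood apart for POU4F1 at a low level, with 0.173 CPM against at most 0.0565 CPM.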

How the results depend on the processing

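The count of genes higher in the rich libraries was 132, and it lay between 92 and 150 with unstranded counts, TMM scaling, other filters or a 4-fold gap, and was 543 with any gap without overlap. Leaving out 1 library gave 128 to 176 genes. The count of lower genes was 0, it was 144 with any gap, and it was 0 to 3 when 1 library was left out. DESeq2 called 11, 88 and 15 genes at 0.5, 5 and 0.05 mGy/h, where edgeR called 1 each. The replicate block gave 0 at each dose rate, and the class as a term gave 0 at 5 mGy/h. When 1 library was left out, the counts were 0 to 1 at 0.5 mGy/h, 0 to 1375 at 5 mGy/h and 0 to 8 at 0.05 mGy/h; the 1375 genes appeared without replicate 1 and the 8 without control 6. Each of these fits called 0 axis genes, a count that in batch 1 is no result about dose because of how the genes were chosen. The cause of the changes in the counts was not tested.

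The median rank correlation of the 11 genes tested in batch 2 was 0.39. It was 0.0545 without the 2 libraries farthest from the median of tph2 and 0.714 within controls. Without those 2 libraries the rank correlations of NXNL1, si:ch211-245j22.3 and rcvrnb turned to -0.0909, -0.139 and -0.0424. Within 0.05 mGy/h, those of NXNL1, si:ch211-245j22.3 and unc119c turned to -0.257, -0.0286 and -0.257, and within controls that of GNGT2 turned to 0.334. Leaving out controls 4 or 6, or both, was added after the data had been seen. Depth limits the axis genes in the poor libraries, where 12 of 132 were at 3 reads or fewer in each.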
